A study of Mus musculus with 6 samples.

Results

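Chromatin modifiers and remodelers are the proteins that write, read and erase chemical marks on DNA and histones and that move nucleosomes along DNA. Methyltransferases and acetyltransferases add the marks, demethylases and deacetylases remove them, readers such as the HP1, Polycomb and bromodomain proteins bind them, and the SWI/SNF, ISWI and CHD enzymes spend ATP to reposition nucleosomes. In steroidogenic cells such as Leydig cells, the testosterone-producing cells of the testis, acetylation of histones at the promoters of steroidogenic genes is known to accompany hormonal stimulation. The genes described here were chosen by symbol alone: protein coding genes whose symbol began with Kdm, Kmt, Hdac, Sirt, Dnmt, Ezh, Smarc, Prmt, Setd, Ehmt, Nsd or Uhrf, with the numbered Tet, Arid, Chd, Brd, Kat, Mbd and Cbx genes, and with Eed, Suz12 and Trim28. This rule took 136 of the 14774 genes measured, of which 11733 were protein coding.

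The libraries came from total RNA of wild type MA-10, a line of tumor Leydig cells of the mouse, and of STARKO1, a derivative of it in which CRISPR/Cas9 had been aimed at Star, the gene for the protein that brings cholesterol to the inner mitochondrial membrane. Both lines were grown normally and left untreated, and each gave 3 libraries. STARKO1 was grown out from a single cell, so the loss of Star and the history of that clone cannot be told apart, and the other knockout clone of the study was not analysed here. The labels do not say that the libraries of a line came from separate cultures, so the p values below measure the spread between these libraries, which may be technical.

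The deposited values were estimated counts per gene, and levels are given as CPM, counts per 1000000 of a library's total after TMM scaling between libraries. Total counts ran from 14114351 to 19530062 per library. Star fell from 1064, 1261 and 697 counts in MA-10 replicates 1, 2 and 3 to 48, 46 and 36 in STARKO1 (log2 fold change -5.09 ± 0.331 SE, edgeR quasi-likelihood test, adjusted p = 0.00121), so the targeted gene followed the labels. All 12 Leydig cell markers on the list were measured, with summed levels of 1735 to 2295 CPM in MA-10 and 1717 to 1776 CPM in STARKO1. The sum held genes that differed in direction: beside Star, Hsd3b1, a steroid dehydrogenase, fell from 27.8, 37.2 and 24.3 CPM to 5.12, 5.72 and 4.72 CPM (log2 fold change -2.52, adjusted p = 0.00268), and the other 10 did not pass. Of these, Cyp11a1 went from a mean of 835 to 439 CPM (-0.93, adjusted p = 0.0670). Cyp17a1, Fdxr and Nr5a1 had positive values (1.27, 0.79 and 0.42, adjusted p = 0.0949, 0.0878 and 0.189). In 7 of the 12 markers the lines did not overlap, 3 higher and 4 lower in STARKO1 (58.3%, against 42.5% of all tested genes). Of other cell types, 1 of 6 Sertoli cell markers and 1 of 5 germ cell markers were listed in the table used here. The summed level of the 2 of 4 endothelial markers listed was 26.4 to 41.5 CPM in MA-10 and 118 to 124 CPM in STARKO1, nearly all of it Cdh5, with Pecam1 under 1 CPM in every library. The muscle marker Des was at 12.5, 20.1 and 13.4 CPM in MA-10 and 1.29, 2.30 and 2.19 CPM in STARKO1 (log2 fold change -3.00, adjusted p = 0.00499), with Myh11 under 1 CPM. The part of these markers in the results below was not tested. MA-10 replicates 2 and 3 stood apart: 7SL RNA, the RNA of the signal recognition particle, took 14.4% and 6.63% of their counts, against 1.81% in MA-10 replicate 1 and 1.82 to 2.37% in STARKO1, and ribosomal protein genes took 8.10% and 7.20%, against 4.08% and 3.80 to 3.96%.

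Of the 136 chromatin genes, 134 had enough counts to be tested. The remaining genes, Chd5 and Kdm4d, had at most 7 counts in any library and were left out by the filter. With an adjusted p under 0.05, 13 of the 134 differed between the lines (9.70%), against 9.04% of all 11939 genes tested, so the share of chromatin genes that changed was near that of all genes and of the protein coding genes alone (9.60%). Higher in STARKO1 were Uhrf1, Setdb1, Prmt5, Prmt9 and Chd8, 5 genes, where the background in that direction was 4.30%. Lower were Uhrf2, Tet1, Cbx2, Setd3, Setdb2, Kdm4c, Smarcd2 and Chd2, 8 genes, where the background was 4.74%. The median log2 fold change over the tested chromatin genes was 0.03 and over all tested genes -0.05, and the median size of the change without its sign was 0.37 and 0.49, respectively. By role, the medians ran from -0.49 for the bromodomain readers to 0.47 for the arginine methyltransferases, and in every role with more than 4 tested genes some values were positive and others negative. Of the 13 genes, 7 changed by more than 2-fold, and their levels in each library are plotted by gene.

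**Figure D1:**
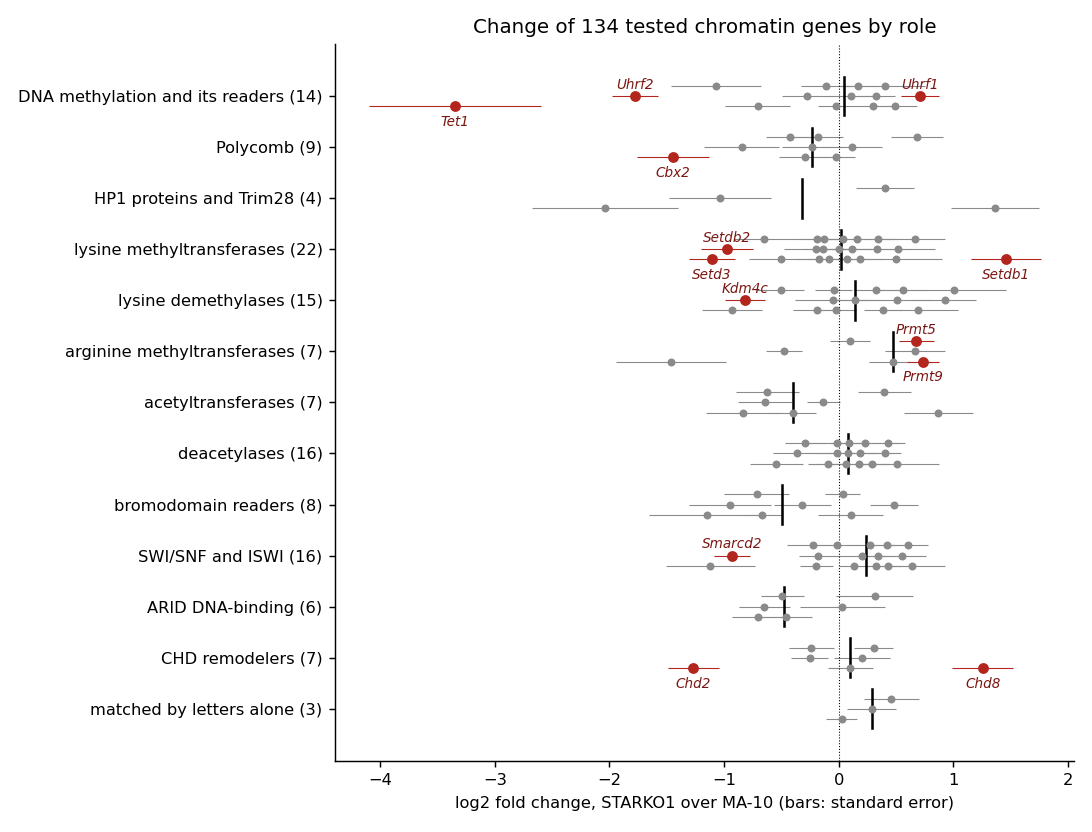
Log2 fold change of STARKO1 over MA-10 (x axis) for each of the 134 tested chromatin genes, grouped by role with the number tested in parentheses. Points are genes with the standard error of the fit, red points passed an adjusted p of 0.05, and black bars are group medians; the 13 red points spread over 7 roles and lie on both sides of 0.

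**Figure D2:**
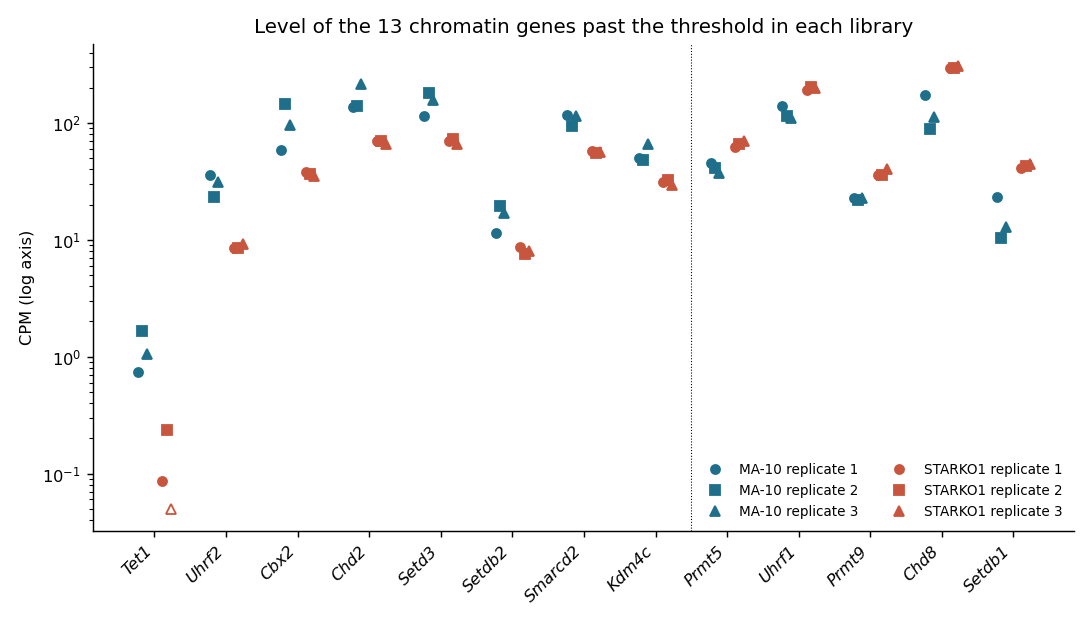
Level in CPM on a log axis of the 13 chromatin genes past the threshold, in each of the 3 MA-10 (blue) and 3 STARKO1 (orange) libraries, with the 8 genes lower in STARKO1 left of the dotted line and the 5 higher genes right of it. The open triangle stands for the count of 0 of Tet1 in STARKO1 replicate 3, and for every gene the libraries of one line lie apart from those of the other. The SD in CPM was larger in MA-10 for all but Prmt5 and Prmt9, and on the log axis Tet1 spread more widely in STARKO1.

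These calls rested on which libraries were included. Without MA-10 replicate 1, 82 chromatin genes (61.2%) passed, the 13 among them, where 65.7% of all tested genes passed. Without MA-10 replicate 2, 5 passed (3.73%, against 4.19% of all genes), and without MA-10 replicate 3, Uhrf2 alone did (0.746%, against 1.49%). Without STARKO1 replicate 1, 2 or 3, 0 chromatin genes passed, at a background of 0.730, 1.11 and 0.760%. DESeq2, with all 6 libraries, called 28 (20.9%), below a background of 28.5%. At an unadjusted p under 0.05, 44 of the 134 (32.8%) passed in the fit to all 6 libraries, where 37.6% of all genes did. For each of the 13 genes, the lowest and highest adjusted p over the 6 fits that left out 1 library follow the adjusted p of the fit to all libraries, and the lowest always came without MA-10 replicate 1 and the highest without 1 of the STARKO1 libraries. In none of these fits did the direction of any of the 13 genes turn.

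Among the 14 genes of DNA methylation and its readers, Uhrf2 and Tet1 were lower and Uhrf1 was higher in STARKO1. Uhrf1 brings the maintenance methyltransferase Dnmt1 to newly copied DNA, and Uhrf2 is its close relative, which binds hydroxymethylated DNA. Uhrf2 (chr19:30030513-30093722, plus strand, mm10) was at 35.7, 23.4 and 30.9 CPM in MA-10 replicates 1 to 3 and at 8.52, 8.55 and 9.27 CPM in STARKO1. All 3 MA-10 values lay above all 3 STARKO1 values, by more than 2-fold. The mean fell from 30.0 ± 6.21 to 8.78 ± 0.426 CPM (SD, n = 3 each; log2 fold change -1.77 ± 0.201 SE, adjusted p = 0.00641, and 8.85e-05 to 0.0713 with 1 library left out). Uhrf2 had the lowest adjusted p of the 134 chromatin genes.

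Uhrf1 (chr17:56303321-56323486, plus strand) was at 139, 115 and 110 CPM in MA-10 and at 190, 204 and 201 CPM in STARKO1. The STARKO1 libraries were all higher, with no overlap, and differed little among themselves. Its mean rose from 121 ± 15.8 to 198 ± 7.08 CPM (log2 fold change 0.71 ± 0.168, adjusted p = 0.0483, and 0.000190 to 0.213 with 1 library left out). Per kilobase of exon, Uhrf1 was at 28.5 CPM and Uhrf2 at 3.49 CPM in MA-10, and at 46.6 and 1.02 CPM in STARKO1.

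Tet1 (chr10:62804570-62908996, minus strand), a dioxygenase that oxidises methylated cytosine, was the least abundant gene of the 13, with 13, 19 and 12 counts in MA-10 and 2, 4 and 0 counts in STARKO1. The lines did not overlap, and the count of 0 in STARKO1 replicate 3 allows a level of up to 0.169 CPM. Its mean fell from 1.15 ± 0.459 to 0.107 ± 0.119 CPM (log2 fold change -3.35 ± 0.752, adjusted p = 0.0430, and 0.00255 to 0.201 with 1 library left out). The related dioxygenases, far more abundant, did not pass: Tet2 was at 39.4 ± 9.50 CPM in MA-10 and 32.5 ± 4.08 CPM in STARKO1, and Tet3 at 49.6 ± 24.8 and 65.7 ± 4.20 CPM. The DNA methyltransferases did not pass either, with log2 fold changes of 0.17 for the maintenance enzyme Dnmt1 (adjusted p = 0.489), 0.11 for the de novo enzyme Dnmt3a (0.687) and 0.49 for Dnmt3b (0.119). Among the genes with an Mbd symbol, Mbd3, a subunit of the NuRD complex, had the highest level per kilobase of this group in MA-10. Its level was 84.3 CPM per kilobase in MA-10 against 51.7 CPM in STARKO1. The MA-10 libraries of Mbd3 were at 100, 210 and 192 CPM, beside 103, 99.3 and 106 CPM in STARKO1 (adjusted p = 0.122).

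Of the 22 lysine methyltransferases, Setdb1 was higher and Setdb2 and Setd3 were lower. Setdb1, which trimethylates H3K9 and acts with Trim28 in silencing, was at 23.1, 10.4 and 12.9 CPM in MA-10 and at 41.3, 42.5 and 44.6 CPM in STARKO1 (chr3:95323525-95357202, minus strand). Every STARKO1 library lay above the highest MA-10 library, which was replicate 1. The mean rose from 15.5 ± 6.75 to 42.8 ± 1.63 CPM (log2 fold change 1.46 ± 0.303, adjusted p = 0.0359, and 2.27e-05 to 0.161 with 1 library left out), and this was the largest increase of the 134 genes. Setdb1 overlaps Cers2 on the other strand, and whether the counting used strand is not given in the sources used here.

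Setdb2 (chr14:59402009-59440884, minus strand), a relative of Setdb1 that also acts on H3K9, was at 11.5, 19.3 and 17.0 CPM in MA-10 and at 8.69, 7.55 and 8.03 CPM in STARKO1. The lines did not overlap, and MA-10 replicate 1 came closest to STARKO1. Its mean fell from 15.9 ± 4.02 to 8.09 ± 0.574 CPM (log2 fold change -0.97 ± 0.229, adjusted p = 0.0474, and 0.000217 to 0.202 with 1 library left out). Setd3 (chr12:108106431-108179314, minus strand), best known as the methyltransferase of a histidine in actin, was at 116, 179 and 156 CPM in MA-10 and at 70.5, 72.2 and 66.1 CPM in STARKO1. Here too all MA-10 libraries were higher, with replicate 1 the lowest of them. The mean fell from 150 ± 31.9 to 69.6 ± 3.14 CPM (log2 fold change -1.11 ± 0.200, adjusted p = 0.0257, and 5.84e-05 to 0.161 with 1 library left out).

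Other lysine methyltransferases stayed short of the threshold. The MLL family of H3K4 methyltransferases had log2 fold changes of 0.34 for Kmt2a, 0.16 for Kmt2b, 0.18 for Kmt2c and 0.50 for Kmt2d, with adjusted p from 0.370 to 0.719. Setd2, the H3K36 trimethylase, was at 0.08 (adjusted p = 0.768), and Nsd1, which dimethylates the same residue, at 0.66 (0.121). The G9a and GLP genes Ehmt2 and Ehmt1, which dimethylate H3K9, were at -0.20 and 0.04. Kmt5a, the H4K20 monomethylase, had the highest level per kilobase of the group in MA-10, 95.5 CPM against 61.0 CPM in STARKO1, with 334, 600 and 587 CPM in the MA-10 libraries and 318, 321 and 332 CPM in STARKO1 (adjusted p = 0.126). MA-10 replicate 1 was thus at the level of STARKO1 for Kmt5a, and replicates 2 and 3 were above it.

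Of 51 pairs of close relatives in which both genes were tested, 27 had log2 fold changes of opposite sign, about as many as had the same sign, and in 3 pairs both genes passed the threshold: Uhrf1 with Uhrf2 and Setdb1 with Setdb2, in opposite directions, and Prmt5 with Prmt9, in the same direction. The log2 ratio of Uhrf1 to Uhrf2 was 1.96, 2.29 and 1.83 in MA-10 replicates 1 to 3 and 4.48, 4.58 and 4.44 in STARKO1. That of Setdb1 to Setdb2 was 1.01, -0.89 and -0.40 in MA-10 and 2.25, 2.49 and 2.47 in STARKO1, so that Setdb2 was the more abundant of the pair in MA-10 replicates 2 and 3 and the less abundant in the other 4 libraries. The balance of both pairs thus differed between the lines in every library, with differences of the log2 fold changes of 2.48 and 2.44, which were not tested. The promoters of these 4 genes are shown because they are the pairs whose members moved in opposite directions. Each runs, 5′ to 3′ on the gene's strand, from 250 bases before to 50 bases after the RefSeq start site in GRCm38.p6 (mm10), and capitals mark the SP1 box, GGGCGG or its reverse complement CCGCCC.
Uhrf1, chr17:56303087-56303386, plus strand: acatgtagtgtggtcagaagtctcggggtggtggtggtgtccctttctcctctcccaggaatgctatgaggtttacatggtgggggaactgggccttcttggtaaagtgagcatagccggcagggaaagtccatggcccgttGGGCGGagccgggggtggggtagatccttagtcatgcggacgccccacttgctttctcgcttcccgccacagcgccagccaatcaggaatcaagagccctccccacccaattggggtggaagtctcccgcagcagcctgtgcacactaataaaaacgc
Uhrf2, chr19:30030263-30030562, plus strand: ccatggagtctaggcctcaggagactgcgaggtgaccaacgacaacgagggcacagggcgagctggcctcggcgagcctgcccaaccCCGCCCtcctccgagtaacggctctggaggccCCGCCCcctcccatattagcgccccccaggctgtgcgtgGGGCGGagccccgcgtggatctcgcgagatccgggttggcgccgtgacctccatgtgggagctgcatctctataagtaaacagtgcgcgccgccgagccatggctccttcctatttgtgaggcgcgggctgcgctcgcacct
Setdb1, chr3:95357153-95357452, minus strand: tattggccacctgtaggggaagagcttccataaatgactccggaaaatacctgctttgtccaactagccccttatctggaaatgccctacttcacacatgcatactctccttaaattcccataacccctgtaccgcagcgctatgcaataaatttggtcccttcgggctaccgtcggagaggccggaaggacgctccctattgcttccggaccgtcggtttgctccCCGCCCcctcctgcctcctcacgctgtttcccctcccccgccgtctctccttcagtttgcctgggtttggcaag
Setdb2, chr14:59440831-59441130, minus strand: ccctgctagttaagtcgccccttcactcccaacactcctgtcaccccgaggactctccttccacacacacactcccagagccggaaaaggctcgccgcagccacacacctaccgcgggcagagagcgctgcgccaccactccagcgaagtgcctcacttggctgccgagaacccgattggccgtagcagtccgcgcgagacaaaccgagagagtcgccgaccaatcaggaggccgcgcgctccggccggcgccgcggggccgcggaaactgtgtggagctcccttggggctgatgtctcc
The promoters of the genes that fell, Uhrf2 and Setdb2, held 28 and 29 CpG dinucleotides, and those of the genes that rose, Uhrf1 and Setdb1, held 12 and 15, where the median over 9792 promoters was 21. Cbx2 and Chd2 had no promoter among those used here. Of the other genes past the threshold, Setd3, Prmt5 and Prmt9 kept to this split around the median, and Kdm4c, Smarcd2, Tet1 and Chd8 did not. Of those that fell, Kdm4c held 0, Smarcd2 4, Tet1 17 and Setd3 40. Of those that rose, Prmt5 held 16, Prmt9 17 and Chd8 26. The windows of Smarcd2 and Tet1 lay 5340 and 21672 bases from the gene starts used here, and no difference in CpG was tested. The SP1 box was present in 3 of the 4 promoters shown and not in that of Setdb2.

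**Figure D3:**
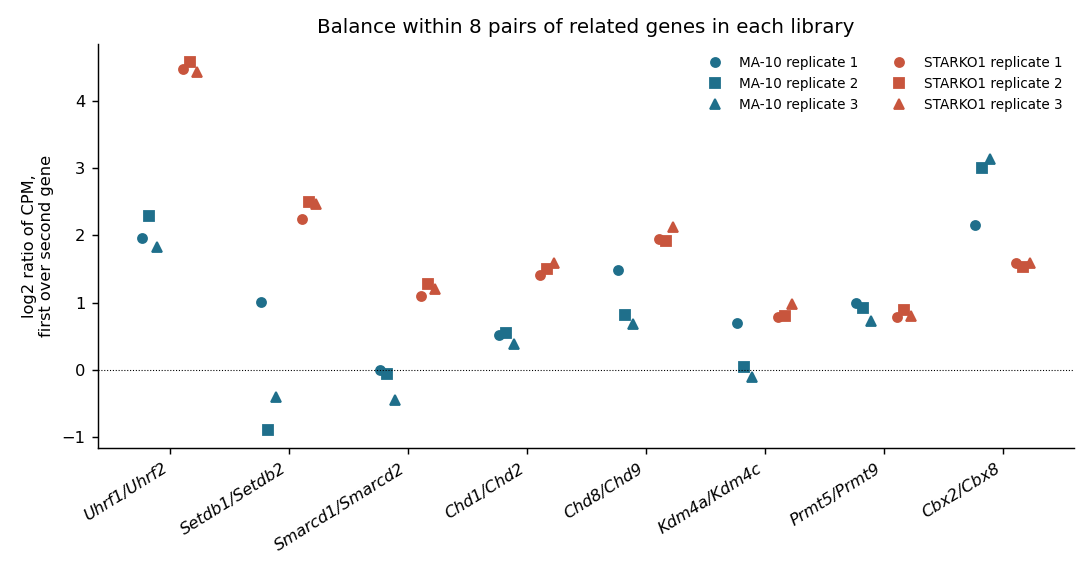
Log2 ratio of CPM of the first over the second gene (y axis) in the 8 pairs of related chromatin genes that hold a gene past the threshold, in each MA-10 (blue) and STARKO1 (orange) library. The Uhrf1/Uhrf2 ratio lies between 1.83 and 2.29 in MA-10 and between 4.44 and 4.58 in STARKO1, while the Prmt5/Prmt9 ratio overlaps between the lines.

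Of the chromatin genes, 107 had a promoter in the RefSeq table. For each gene the window nearest to its start was taken, with no limit of distance. Some windows lay far from the gene starts used here, such as those of Sirt1 (42669 bases), Cbx7 (38473) and Brd3 (32264). Both strands were searched, with matches of different motifs counted even where they overlapped. The SP1 box was in 78 of the 107 promoters (72.9%), against 65.1% of the 9792 promoters, and the CCAAT box in 47 (43.9%), against 39.8%. The E2F sites TTTCCCGC and TTTGGCGC, which end in letters an SP1 box can share, were in 7 (6.54%), against 3.21%. The cyclic AMP response element TGACGTCA was in 2 (1.87%), against 3.30%, the TATA box TATAAA in 5 (4.67%), against 6.78%, and the SF-1 site CAAGGTCA in 0, against 1.07%. These are counts of letters in a window and were not tested.

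Among the 9 Polycomb genes, Cbx2 was lower in STARKO1. Cbx2, a reader of H3K27 methylation in the canonical Polycomb repressive complex, was at 59.2, 144 and 95.3 CPM in MA-10 and at 37.7, 36.7 and 35.2 CPM in STARKO1 (chr11:119022962-119031270, plus strand). All MA-10 libraries lay above STARKO1, and MA-10 replicate 2 was more than 2-fold above replicate 1. The mean fell from 99.4 ± 42.5 to 36.5 ± 1.28 CPM (log2 fold change -1.44 ± 0.316, adjusted p = 0.0407, and 7.56e-05 to 0.185 with 1 library left out). Cbx8, a related reader next to it on chromosome 11, had a log2 fold change of -0.18 (adjusted p = 0.552). The core of the repressive complex that methylates H3K27 did not pass: its catalytic subunit Ezh2 was at 96.1, 183 and 167 CPM in MA-10 and 121, 134 and 124 CPM in STARKO1, and Suz12, the gene of this group with the highest level per kilobase in MA-10 (26.0 against 25.6 CPM), at 137, 111 and 137 CPM and 135, 125 and 119 CPM. Eed, the subunit that binds the mark, was at 33.6, 86.7 and 61.2 CPM in MA-10 and 35.2, 30.8 and 34.8 CPM in STARKO1 (adjusted p = 0.115), with MA-10 replicate 1 again at the level of STARKO1.

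None of the 3 HP1 genes passed by edgeR, although the means of Cbx1 and Cbx3 differed by more than 2-fold. Cbx1, which encodes HP1 beta and had the highest level per kilobase of all 134 tested genes in MA-10 (114 CPM against 27.7 CPM in STARKO1), was at 110, 799 and 547 CPM in MA-10 and at 117, 119 and 119 CPM in STARKO1. MA-10 replicate 1 lay below STARKO1, and replicates 2 and 3 lay more than 2-fold above it. The log2 fold change was -2.04 ± 0.636 (adjusted p = 0.0767), and with MA-10 replicate 1 alone against STARKO1 it was 0.10, a comparison chosen after the data were seen. Cbx3, HP1 gamma, had the same order of libraries, with 150, 577 and 358 CPM in MA-10 and 179, 178 and 173 CPM in STARKO1 (adjusted p = 0.141). Cbx5, HP1 alpha, was at 602, 346 and 419 CPM and 625, 598 and 584 CPM (adjusted p = 0.270). Trim28, the corepressor that recruits Setdb1 and HP1 proteins to silenced loci, was at 220, 77.5 and 107 CPM in MA-10 and at 322, 349 and 372 CPM in STARKO1, with no overlap, but its adjusted p was 0.0657 (log2 fold change 1.37 ± 0.387). Without MA-10 replicate 1, its adjusted p was 4.79e-05.

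Of the 15 lysine demethylases tested, Kdm4c was lower. Kdm4c, which removes methyl groups from H3K9 and H3K36, was at 49.9, 48.0 and 65.7 CPM in MA-10 and at 31.0, 32.5 and 29.4 CPM in STARKO1 (chr4:74242497-74405860, plus strand). The MA-10 libraries were all higher, replicate 3 most. The mean fell from 54.5 ± 9.73 to 31.0 ± 1.58 CPM (log2 fold change -0.82 ± 0.177, adjusted p = 0.0398, and 0.00255 to 0.205 with 1 library left out). Its relative Kdm4a, with the same substrates, was at 81.1, 49.4 and 61.2 CPM and 53.6, 56.4 and 58.0 CPM, with the lines overlapping. Just outside the threshold were Kdm7a, a demethylase of H3K9 and H3K27, at -0.93 (adjusted p = 0.0641), and Kdm3a, an H3K9 demethylase, at 0.93 (adjusted p = 0.0703). Kdm1a, the LSD1 gene and the highest per kilobase of the group in MA-10, was at 34.9 CPM per kilobase in MA-10 and 34.3 in STARKO1. The H3K27 demethylases Kdm6a and Kdm6b had log2 fold changes of 0.33 and -0.05 (adjusted p = 0.237 and 0.915). Kdm4d, not tested, had 2, 1 and 1 counts in MA-10 and 7, 6 and 5 in STARKO1.

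Of the 7 arginine methyltransferases, Prmt5 and Prmt9, the enzymes known for symmetric dimethylation, were higher in STARKO1. Prmt5 (chr14:54507187-54517525, minus strand) was at 45.3, 41.0 and 37.4 CPM in MA-10 and at 61.8, 66.4 and 69.8 CPM in STARKO1. Prmt9 (chr8:77549397-77581338, plus strand) was at 22.8, 21.7 and 22.7 CPM and 35.9, 36.0 and 40.0 CPM. For both, the lines did not overlap and the libraries within each line were close together. Prmt5 rose from 41.2 ± 3.94 to 66.0 ± 4.02 CPM (log2 fold change 0.68 ± 0.152, adjusted p = 0.0428, and 0.000385 to 0.206 with 1 library left out), and Prmt9 from 22.4 ± 0.621 to 37.3 ± 2.33 CPM (0.74 ± 0.141, adjusted p = 0.0293, and 0.000466 to 0.180). Wdr77, which encodes the partner MEP50 that Prmt5 needs for activity, rose as well, from 16.4, 10.7 and 7.75 CPM in MA-10 to 34.5, 35.0 and 38.1 CPM in STARKO1 (log2 fold change 1.62, adjusted p = 0.0232). The main asymmetric enzyme Prmt1, the highest per kilobase of the group in MA-10 (28.6 against 30.7 CPM), had a log2 fold change of 0.10 (adjusted p = 0.681). Prmt7, a monomethylating enzyme, was at 53.9, 234 and 166 CPM in MA-10 and 52.9, 52.0 and 59.8 CPM in STARKO1 (adjusted p = 0.0841), another gene with MA-10 replicate 1 at the level of STARKO1.

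Among the genes with Kat, Hdac and Sirt symbols, 0 of 7 acetyltransferases and 0 of 16 deacetylases passed by edgeR. At an unadjusted p under 0.05 there were 3 and 2 (42.9% and 12.5%, against 37.6% of all tested genes). These groups were taken by symbol, whether or not the enzyme acts on histones. With 9.04% of all genes past the threshold, groups of this size hold too few genes for a count of 0 to set them apart. The acetyltransferases ran from -0.83 for Kat5, the Tip60 gene, to 0.87 for Kat2a, the Gcn5 gene, on the log2 scale. Kat2a was at 59.3, 25.8 and 45.6 CPM in MA-10 and 78.1, 74.4 and 87.0 CPM in STARKO1, without overlap (adjusted p = 0.0895). Kat6a, the MOZ gene, was the highest per kilobase in MA-10, at 23.0 CPM against 17.4 CPM. The deacetylases ran from -0.54 for Hdac8 to 0.51 for Hdac4. The class I pair Hdac1 and Hdac2, catalytic subunits of the NuRD, Sin3 and CoREST complexes, had log2 fold changes of 0.29 ± 0.157 and -0.09 ± 0.178 (adjusted p = 0.208 and 0.725), and Hdac2 was the highest per kilobase of the group in MA-10, at 53.6 CPM against 50.3 CPM. Hdac3, the deacetylase of the nuclear receptor corepressors, was at 22.6, 19.8 and 20.3 CPM in MA-10 and 27.8, 28.8 and 28.1 CPM in STARKO1, without overlap (log2 fold change 0.43, adjusted p = 0.0839). Sirt1, a NAD-dependent deacetylase, was at 0.09 (adjusted p = 0.680).

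Of the 8 genes with a Brd symbol, 0 passed by edgeR, with 3 at an unadjusted p under 0.05. Brd2, a bromodomain protein that binds acetylated histones, came nearest, at 199, 226 and 249 CPM in MA-10 and 140, 149 and 136 CPM in STARKO1 (log2 fold change -0.67 ± 0.168, adjusted p = 0.0546), without overlap. Brd7, a subunit of a SWI/SNF complex and the highest per kilobase here in MA-10 (70.6 against 31.9 CPM), was at 129, 629 and 353 CPM in MA-10 and 164, 168 and 170 CPM in STARKO1 (adjusted p = 0.150). Its libraries were ordered as those of Cbx1, with MA-10 replicate 1 below STARKO1 and replicates 2 and 3 above it. One of the 8 symbols, Brd3os, belongs to a gene on the strand opposite Brd3 and is not a bromodomain protein.

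The remodelers of the SWI/SNF and ISWI families, 16 genes with Smarc symbols or Arid1 and Arid2, included one change. Smarcd2, a subunit of SWI/SNF complexes known from granulocyte development, was at 117, 93.8 and 114 CPM in MA-10 and at 57.8, 55.5 and 56.8 CPM in STARKO1 (chr11:106263179-106272972, minus strand). The MA-10 libraries were all higher and none of them came near STARKO1. The mean fell from 108 ± 12.5 to 56.7 ± 1.15 CPM (log2 fold change -0.93 ± 0.156, adjusted p = 0.0211, and 0.000870 to 0.163 with 1 library left out). The alternative subunits Smarcd1 and Smarcd3 had positive values that did not pass, 0.42 (adjusted p = 0.139) and 0.61 (0.0647), and the log2 ratio of Smarcd1 to Smarcd2 was 0.00, -0.06 and -0.45 in MA-10 and 1.09, 1.28 and 1.20 in STARKO1. The ATPases Smarca4 (BRG1) and Smarca2 (BRM) were at 0.33 and -0.18 (adjusted p = 0.298 and 0.459). The core subunit Smarcb1 was at -0.20 ± 0.146 (0.344), and the large subunits Arid1a, Arid1b and Arid2 were at -0.22, 0.64 and 0.20 (0.493, 0.145 and 0.512). Smarce1, another core subunit, was at 111, 267 and 340 CPM in MA-10 and 111, 113 and 106 CPM in STARKO1 (adjusted p = 0.0912). Smarca5, the ISWI ATPase and the highest per kilobase of the group in MA-10, was at 66.2 CPM per kilobase in MA-10 and 65.7 in STARKO1. The 6 other ARID genes, DNA-binding proteins led per kilobase by Arid4b (10.1 against 6.20 CPM), had 0 past the threshold by edgeR, with 3 at an unadjusted p under 0.05.

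Of the 7 CHD remodelers tested, Chd2 was lower and Chd8 was higher. Chd2, a remodeler known from neurodevelopmental disorders, was at 138, 141 and 217 CPM in MA-10 and at 70.4, 69.8 and 65.6 CPM in STARKO1 (chr7:73426638-73541830, minus strand). All MA-10 libraries lay well above STARKO1, replicate 3 most. The mean fell from 165 ± 44.8 to 68.6 ± 2.61 CPM (log2 fold change -1.27 ± 0.221, adjusted p = 0.0235, and 0.000461 to 0.151 with 1 library left out). Chd2 overlaps 1810026B05Rik, C130083A15Rik and Gm44552 on its own strand, so reads in the shared bases are of uncertain origin. Chd8 (chr14:52198151-52257780, minus strand), a remodeler that binds beta-catenin, was at 173, 89.2 and 112 CPM in MA-10 and at 296, 293 and 306 CPM in STARKO1. Every STARKO1 library lay above every MA-10 library, with MA-10 replicate 1 the nearest. The mean rose from 125 ± 43.2 to 298 ± 7.01 CPM (log2 fold change 1.26 ± 0.268, adjusted p = 0.0379, and 4.46e-05 to 0.177 with 1 library left out). Its region also holds Snord8 on the same strand and Gm26590 on the other.

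Among the remaining CHD genes, Chd4, the ATPase of the NuRD complex and the highest per kilobase in MA-10 (76.5 against 88.2 CPM), was at 596, 470 and 776 CPM in MA-10 and 674, 696 and 751 CPM in STARKO1 (adjusted p = 0.552). Chd1, the nearest relative of Chd2, was at 198, 205 and 283 CPM and 188, 197 and 197 CPM, without a change past the threshold (adjusted p = 0.395), and Chd9, that of Chd8, had a log2 fold change of 0.30 (adjusted p = 0.224). Chd5, not tested, had 7, 4 and 1 counts in MA-10 and 2, 2 and 2 in STARKO1. The rule also took 3 genes by their letters alone, the sterol enzyme Nsdhl and the Uhrf1-binding protein genes Uhrf1bp1 and Uhrf1bp1l, with log2 fold changes of 0.29, 0.46 and 0.03 (adjusted p = 0.348, 0.200 and 0.902). Without these and Brd3os, the 13 were out of 130 genes tested.

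The libraries of the chromatin genes did not fall simply by line. In 58 of the 134 genes the 3 libraries of one line lay apart from those of the other (43.3%, against 42.5% of all tested genes), 33 with STARKO1 higher (background 21.5%) and 25 with STARKO1 lower (background 21.0%). Relative to the mean of the STARKO1 libraries, 5 chromatin genes in MA-10 replicate 1, 32 in replicate 2 and 24 in replicate 3 differed by more than 2-fold, and 0 did in any STARKO1 library. Across the 134 genes, the Pearson correlation of log2 CPM with STARKO1 libraries was 0.973 to 0.977 for MA-10 replicate 1, 0.891 to 0.896 for replicate 2 and 0.923 to 0.929 for replicate 3. MA-10 replicate 1 correlated at 0.908 with MA-10 replicate 2 and at 0.951 with replicate 3, and STARKO1 libraries at 0.997 to 0.998 among themselves. These describe genes within libraries and are not independent points. MA-10 replicate 1 was the MA-10 library nearest to the STARKO1 mean in 82 of the 134 genes (61.2%, against 64.0% of all tested genes) and in 10 of the 13 that passed. Chromatin genes were long, with a median of 6.69 kb of exon against 4.37 kb for the other protein coding genes. Across the 134 genes, which share the same libraries, length had a Spearman correlation of 0.033 with the log2 fold change and of -0.293 with the log2 ratio of MA-10 replicate 2 to replicate 1. With offsets for gene length, 15 chromatin genes (11.2%) passed, the 13 among them, where 10.1% of all genes did. The SD was a median of 24.6% of the mean in MA-10 and 4.58% in STARKO1.

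**Figure D4:**
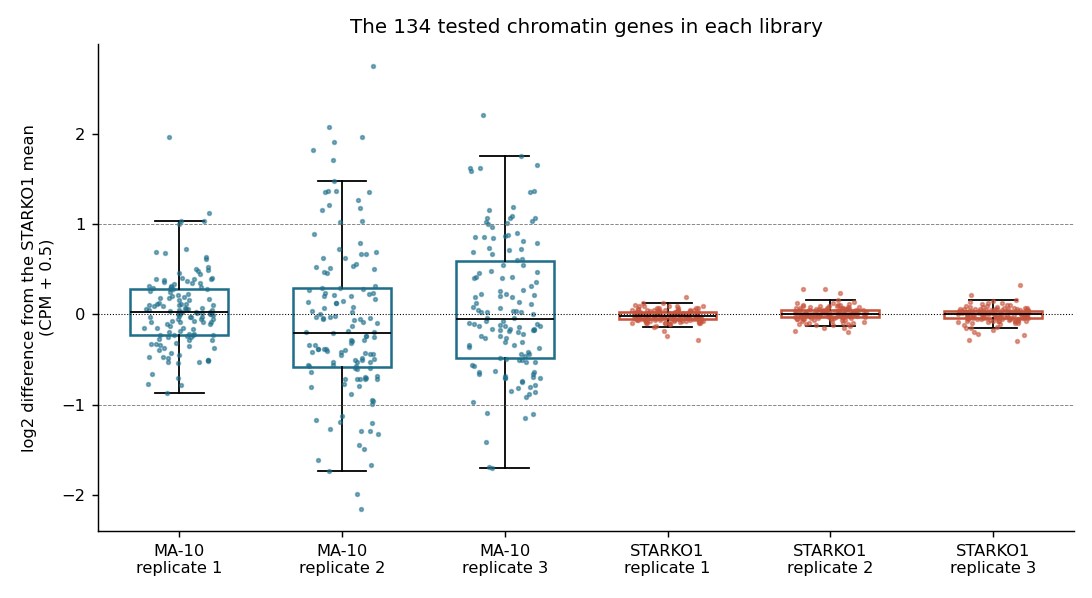
Log2 difference from the STARKO1 mean, on CPM plus 0.5, of the 134 tested chromatin genes (points) in each of the 6 libraries, with boxes from the lower to the upper quartile and a line at the median; dashed lines mark 2-fold. Genes beyond 2-fold number 5, 32 and 24 in MA-10 replicates 1, 2 and 3 and 0 in each STARKO1 library.

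Of the 134 genes, 8 differed by more than 2-fold without passing: Cbx1, Cbx3, Brd7, Prmt7, Smarce1 and Mbd2 in the direction of MA-10, and Trim28 and Kdm8 in that of STARKO1. They were singled out by size after their values were seen. Mbd2, a methyl-CpG binding protein, was at 96.8, 221 and 307 CPM in MA-10 and 98.2, 106 and 93.4 CPM in STARKO1 (log2 fold change -1.07 ± 0.393, adjusted p = 0.101), and Kdm8, a Jumonji protein, at 2.98, 0.781 and 1.41 CPM and 3.48, 3.48 and 3.76 CPM (1.01 ± 0.450, adjusted p = 0.149). In each of the 6 genes with the higher mean in MA-10, replicate 1 lay within or below the STARKO1 libraries, and replicates 2 and 3 lay more than 2-fold above the STARKO1 mean. In the libraries with more 7SL RNA the chromatin genes together took a smaller share of the counts, 0.861% in MA-10 replicate 2 and 1.18% in replicate 3, against 1.48% in replicate 1 and 1.52 to 1.53% in STARKO1. After TMM scaling their summed level was 12845, 13171 and 14620 CPM in MA-10 and 12855, 13056 and 13002 CPM in STARKO1. The 7SL share as a covariate was an alternative chosen after the data were seen. With it, 21 chromatin genes (15.7%) passed, the 13 among them, against 21.5% of all genes.

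**Figure D5:**
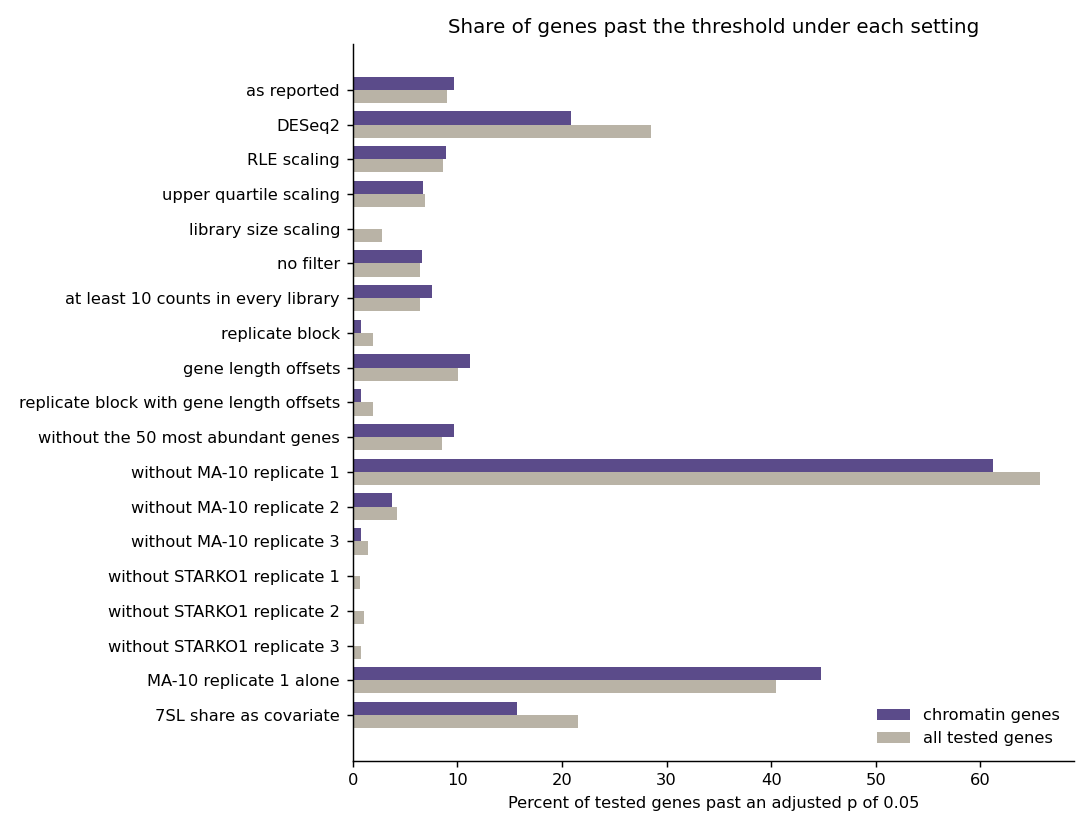
Percent of tested chromatin genes (purple) and of all tested genes (grey) past an adjusted p of 0.05, as reported and under each alternative setting. The purple bar is 9.70 as reported, is longest without MA-10 replicate 1, and is at 0 without any one of the STARKO1 libraries and with library size scaling. The bars for MA-10 replicate 1 alone come from a fit with 1 MA-10 library, in which STARKO1 supplies the spread for both lines.

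Of 157 genes listed as partners of these proteins, 151 were measured and 150 tested, and 6 passed (4.0%), a smaller share than the 9.04% of all tested genes. Higher in STARKO1 were Wdr77, Morc2a, an ATPase that acts in silencing (log2 fold change 1.13, adjusted p = 0.0107), and Pphln1, which encodes periphilin (0.76, 0.0328). Lower were Zbtb4, a zinc finger protein that binds methylated DNA (-1.92, 0.0167), Phf10, a subunit of SWI/SNF complexes (-1.12, 0.0422), and Smyd3, a lysine methyltransferase (-0.60, 0.0457). Of these 6, Morc2a and Zbtb4 passed in 2 of the 6 fits that left out 1 library and the other 4 in 1 of them, and their adjusted p without MA-10 replicate 1 ran from 2.56e-05 for Wdr77 to 0.00524 for Smyd3. None of the 25 Polycomb partners, 31 acetyltransferase partners or 18 deacetylase complex partners passed by edgeR, with 9, 8 and 4 at an unadjusted p under 0.05 (36.0, 25.8 and 22.2%, against 37.6% of all tested genes). Of 18 proliferation markers, a list kept because several chromatin genes follow the cell cycle, 0 passed by edgeR, with 5 at an unadjusted p under 0.05 and summed levels of 4630 to 4992 CPM in MA-10 and 4785 to 4990 CPM in STARKO1.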

How the data were processed

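RNA of 3 MA-10 and 3 STARKO1 libraries was made with a stranded total RNA kit. The authors deposited one table of estimated counts per gene, without normalization, with the libraries kept apart and with gene coordinates on mm10. Per the labels, the submitters' processing notes list STAR 2.6.1d and Partek with no role; the program that counted the genes and its use of strand are not given in the sources used here. Values that were not whole occurred in 60 chromatin genes (44.1%) and in 31.1% of all genes. The deposited gene ends lay 1 base past the GENCODE ends and were corrected.

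Estimated counts were rounded and fitted in edgeR 4.0.16 (R 4.3.3) with filterByExpr, TMM and the quasi-likelihood test over all genes. The Benjamini-Hochberg adjustment was used with a threshold of 0.05. Standard errors are the fold change divided by the square root of F. Lengths are merged exons. Promoters came from RefSeq (GRCm38.p6). The biological coefficient of variation, a common value for all genes and both lines, was 0.291. For genes with many counts the spread between libraries, rather than depth, thus limited precision. For genes with few counts, such as Tet1, depth limited it as well. On simulated counts of 11908 genes, edgeR recovered 99% of 4-fold and 30% of 2-fold changes, with 3.73% of calls false, against 14.6% for DESeq2 1.42.0. The simulation gave both lines the same dispersion and no shift shared by many genes of a library. The MA-10 and STARKO1 libraries differed in spread, so these rates may not hold for them. Named are the genes past the threshold, landmark genes, the gene with the highest level per kilobase of each role in MA-10, close relatives of genes past the threshold, untested genes, partners past the threshold, and symbols matched by letters alone. Some genes counted in these totals are not reported here by name. The genes, lists and pairs were chosen with earlier results of these data known. Alternatives were other scalings, filters and thresholds, DESeq2, gene length offsets, a replicate block and leaving out each library. Figures were drawn with matplotlib 3.10.9 from tables made in Python 3.11.15 with pandas 2.3.3 and numpy 2.4.6.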

Additional observations from a re-analysis of the deposited data

How the results depend on the processing

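The direction of the 13 genes past the threshold was the same in every fit, while their number was not. Chromatin genes past the threshold numbered 13 as reported (5 higher, 8 lower), 28 (12 and 16) with DESeq2, 0 (0 and 0) with library size scaling, 60 (28 and 32) with MA-10 replicate 1 alone, 21 with the 7SL share as covariate (14 lower), 28 (12 and 16) at an adjusted p under 0.1 and 1 (0 and 1) under 0.01. The lower genes numbered 5 with upper quartile scaling and 5 with no filter, where 6.94% and 6.41% of all genes passed in either direction. Without 1 library the counts ran from 0 to 82, with 0 to 51 higher and 0 to 31 lower, where 0.730 to 65.7% of all genes passed. Partner genes numbered 6 as reported, 29 with DESeq2, 0 with library size scaling, 57 with MA-10 replicate 1 alone, 24 with the 7SL share as covariate, 29 at an adjusted p under 0.1, 0 under 0.01 and 0 to 92 without 1 library. MA-10 replicate 1 alone and the 7SL covariate were chosen after the data were seen. With MA-10 replicate 1 alone the spread comes from STARKO1 only, and the lone library is assumed to vary like those. The share of genes passing in that fit therefore says nothing of how firm the calls are. With 2 libraries in a line the test has fewer degrees of freedom, and beyond that the cause of these moves was not tested.

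Labels number the libraries 1 to 3 in both lines, but do not say that same-numbered libraries were prepared together. Deviations of same-numbered libraries from their line's mean correlated at -0.0346, 0.0907 and -0.0162 over 8538 genes. With so few libraries and the wide spread within MA-10, these values cannot tell whether the libraries were paired. With the replicate block, 1 chromatin gene passed, Uhrf2 (0 higher, 1 lower; adjusted p = 0.0287), and 0 partner genes, and the block with gene length offsets gave 1 (0 and 1) and 0, where 1.96% and 1.98% of all genes passed.

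The median log2 fold change over the chromatin genes was 0.03 as reported, 0.18 with upper quartile scaling, 0.45 with library size scaling, -0.07 with the 7SL covariate and -0.04 to 0.17 without 1 library. Over all genes it was -0.05, 0.10 with upper quartile scaling, 0.38 with library size scaling and -0.06 to 0.06 without 1 library, so these scalings shifted all genes alike. The chromatin median minus that of all genes was 0.08, and -0.03 with MA-10 replicate 1 alone and -0.05 with the 7SL covariate.

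Turns of sign were limited to genes that did not pass the threshold, and the lists here do not hold every chromatin gene that turned. For example, the log2 ratio of the STARKO1 mean to MA-10 replicate 1 was 0.24 for Cbx3, 0.03 for Mbd2 and 0.03 for Prmt7. Their log2 fold changes with all libraries were -1.03, -1.07 and -1.46. For Kmt2b and Hdac4 this ratio was -0.35 and -0.18, beside log2 fold changes of 0.16 and 0.51. With library size scaling these log2 fold changes turned positive: Arid1a 0.17, Cbx7 0.04, Cbx8 0.29, Chd1 0.22, Ehmt2 0.19, Ezh1 0.20, Ezh2 0.29, Hdac2 0.38, Kat6a 0.06, Kdm1a 0.38, Kdm4a 0.18, Kdm5a 0.40, Kdm6b 0.26, Nsd2 0.28, Sirt3 0.05, Smarca2 0.27, Smarca5 0.48, Smarcb1 0.27, Suz12 0.39 and Tet2 0.16. With upper quartile scaling Hdac2 0.07, Kdm1a 0.11, Kdm5a 0.11, Kdm6b 0.06, Nsd2 0.01, Smarca5 0.15 and Suz12 0.12 did so. With MA-10 replicate 1 alone the values were Brd7 0.38, Cbx1 0.10, Dnmt3a -0.07, Eed 0.00, Ezh2 0.39, Hdac2 0.15, Kdm5a 0.05, Kmt2a -0.11, Kmt2d -0.19, Mbd3 0.03, Setd2 -0.03, Sirt1 -0.01, Sirt6 -0.42, Smarca5 0.36 and Tet3 -0.21. With the 7SL covariate they were Brd7 0.19, Dnmt3a -0.10, Ezh1 0.02, Ezh2 0.26, Hdac2 0.07, Kmt2a -0.13, Kmt2d -0.09, Setd2 -0.08, Sirt1 -0.01, Sirt6 -0.29, Smarca5 0.25 and Tet3 -0.14. Gene length offsets, with or without the block, gave Ehmt1 -0.03 and Uhrf1bp1l -0.04. No filter gave Kdm1a 0.03, Kdm5a 0.02, Smarca5 0.05 and Suz12 0.03, a minimum of 10 counts gave Kdm1a 0.00, Smarca5 0.02 and Suz12 0.00, removal of the 50 most abundant genes gave Kdm1a 0.01, Smarca5 0.03 and Suz12 0.01, the replicate block gave Kdm6b 0.05 and Smarca5 0.01, and DESeq2 and RLE scaling gave Smarca5 0.01. Without 1 library the ranges that crossed 0 were Cbx8 -0.34 to 0.03, Dnmt3a -0.04 to 0.29, Ehmt1 -0.01 to 0.14, Ehmt2 -0.45 to 0.02, Kdm1a -0.11 to 0.20, Kdm4a -0.35 to 0.10, Kdm5a -0.09 to 0.06, Kdm6b -0.32 to 0.46, Setd2 -0.06 to 0.22, Sirt6 -0.09 to 0.49, Smarca5 -0.08 to 0.09 and Suz12 -0.12 to 0.11.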

Other observations

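The neighbours of some chromatin genes past the threshold had also changed. These were looked up after their values were seen and are given as values only, beside 9.04% of all tested genes that passed. All 11 of these neighbours were called without MA-10 replicate 1, but Ccnk, Cab39l, Mettl3, Ndrg2, Arhgef40, Plin5 and Ermp1 in no other fit that left out 1 library, and Tox4 and Ddx21 in 1 other. With the replicate block, Ccdc85c (adjusted p = 0.00968) and Arhgef40 (0.0445) passed, and the others had adjusted p from 0.0515 for Gm44736 and Mettl3 to 0.116 for Cab39l. Setd3 lies on chromosome 12 beside Ccnk, which encodes cyclin K, and Ccdc85c, and both other genes tested within 0.5 Mb of it were lower in STARKO1. Ccnk, whose start lies 265 bases from that of Setd3 on the other strand, was at 29.1, 37.8 and 30.2 CPM in MA-10 and 19.0, 16.9 and 18.9 CPM in STARKO1 (log2 fold change -0.82, adjusted p = 0.0353). Ccdc85c had 282, 67 and 78 counts in MA-10 and 4, 0 and 2 counts in STARKO1 (adjusted p = 0.00641). Setdb2 shares its start region with Cab39l, 88 bases away on the other strand, and Cab39l was lower too, at 24.6, 33.3 and 29.0 CPM in MA-10 and 18.5, 17.0 and 16.8 CPM in STARKO1 (log2 fold change -0.73, adjusted p = 0.0469). In all, 12 chromatin genes and protein coding partners that start within 1000 bases of each other on opposite strands and point apart were both tested, 5 of these pairs had the same sign, and 2 were both past the threshold, Setd3 with Ccnk and Setdb2 with Cab39l.

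Around Chd8 on chromosome 14, 4 of 9 tested neighbours within 0.5 Mb passed. Mettl3, the catalytic subunit of the RNA m6A methyltransferase, was at 12.4, 6.94 and 4.84 CPM in MA-10 and 28.3, 30.4 and 32.1 CPM in STARKO1 (log2 fold change 1.90, adjusted p = 0.0246). Tox4 and Ndrg2 were also higher (1.24 and 1.08), and Arhgef40 was lower (-4.32), with 22, 140 and 67 counts in MA-10 and 7, 8 and 3 in STARKO1. Beside Tet1, Ddx21, an RNA helicase of the nucleolus, was higher, at 198, 207 and 228 CPM in MA-10 and 379, 393 and 437 CPM in STARKO1 (0.93, adjusted p = 0.0276), as 1 of 17 tested neighbours. Plin5 was higher near Uhrf1 (1.12, 1 of 30 tested neighbours), and Ermp1 was lower near Uhrf2 (-0.95, 1 of 4). Near Chd2, Gm44736 had 38, 16 and 19 counts in MA-10 and 0 in every STARKO1 library. Of the neighbours of Cbx2, Prmt5, Prmt9, Setdb1 and Smarcd2, 0 passed by edgeR, out of 10, 20, 3, 30 and 14 tested.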
